A study of Mus musculus with 8 samples.

Results

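Potassium channel genes were taken as the genes whose symbol had the Kcn stem followed by a family letter and a number and that held at least 100 UMIs (unique molecular identifiers, which count captured RNA molecules) over all kidney nuclei that passed quality control. Of the 93 symbols with this form, 64 reached that count and are the genes described here, out of 21286 protein-coding genes in the files. The remaining 29 fell below it, and 3 of them (Kcnv1, Kcnk9 and Kcna10) had no UMI at all. Just inside the limit stood Kcnk7 with 124 UMIs, and just outside it Kcnk12 with 90. Among known renal or vascular channel genes, Kcne3 (77 UMIs), Kcne2 (25), Kcna5 (13) and Kcna3 (11) stayed below it.

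Single-nucleus RNA was read from kidneys of 8 male C57BL/6J mice, in 4 groups of 2 animals. Control mice (Ctrl) were Bmal1lox/lox, and their littermates with a tubular knockout (cKOt) were Bmal1lox/lox/Pax8-rtTA/LC-1, in which doxycycline switches on a Cre recombinase in cells that use the Pax8 promoter, the epithelium of the renal tubule, so that by design the clock gene Bmal1 (Arntl) stays intact in the other renal cells. Both genotypes drank doxycycline (2 mg/ml with 20 mg/ml sucrose) for 2 weeks from 8 weeks of age, so the agent was shared by all groups. Kidneys were taken at ZT4, in the light phase when mice rest, and at ZT16, in the dark phase when they are active.

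Potassium channels are pores that let potassium leave or enter cells and so set the membrane voltage. In the nephron they return the potassium that the sodium pump brings into the cell, supply the luminal potassium that the sodium-potassium-chloride cotransporter of the thick limb needs, and secrete potassium into the urine in the distal segments. In vessels and mesangium they set contractile tone, and in immune cells they hold the voltage that draws calcium in. A pore is built of subunits with 2 transmembrane segments (inward rectifiers, Kcnj), 4 (two-pore channels, Kcnk) or more (voltage-gated and calcium- or sodium-activated channels), and auxiliary subunits change its gating and its transport to the membrane.

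The libraries held 8758 to 10975 nuclei each (81391 in all) and 36548873 to 54500820 UMIs, with a median of 3003.5 to 4830 UMIs per nucleus. Potassium channel genes took 0.217 to 0.314% of the UMIs of protein-coding genes, 811697 UMIs in all. The files count whole genes, so Arntl counts could not show the recombined exon and check nothing. They lay at 33.1 to 39.2 CPM (counts scaled to a common total of protein-coding UMIs per library) in Ctrl at ZT4 and 203 to 288 in cKOt at ZT4. Nr1d1, a direct target of BMAL1, lay at 24.5 to 28.2 CPM in Ctrl and 6.87 to 11.1 in cKOt at ZT4. Across libraries, 823 barcodes occurred more than once, 18 to 42 for any pair of libraries, and 4367 nuclei (5.37%) were called as doublets and kept. No library was left out of the main results.

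Nuclei were clustered without any Kcn gene and named from marker genes, so that the genes described here took no part in drawing the classes. Each class name below stands for nuclei that are like that cell type by its markers. They were podocytes (Podo), proximal convoluted and straight tubule (PCT, PST), thin descending and ascending limb (thinDL, thinAL), thick ascending limb (TAL), macula densa (MD), early and late distal convoluted tubule (DCT1, DCT2), connecting tubule (CNT), cortical and medullary collecting duct (CCD, MCD), alpha and beta intercalated cells (aIC, bIC), urothelium (UT), endothelium (Vasc), mesangium and pericytes (Mes/Per), smooth muscle with juxtaglomerular cells (SMC/JGC), myeloid cells (Myel), B cells (BC) and T or natural killer cells (TC/NK). Mes/Per is a broad stromal class, whose markers included Col1a2, Col3a1 and Fbln5. Its largest clusters were 28 (4257 of 8576 nuclei, with Fbln5 and Col14a1 among its leading genes) and 31 (2468 nuclei, led by Adamtsl1 and Smoc2). Leading genes of cluster 30 included Dcn and Postn, and those of cluster 39 Vcan and Tnc. How much of Mes/Per is mesangium, pericytes or fibroblasts was not tested. PST fell into clusters 12 and 23, which are given apart, and clusters that the markers did not name keep their number. Cluster 14 was led by Slc13a3 and the organic anion transporter Slc22a8, cluster 34 by Corin and Htr4, cluster 38 by Tbpl2 and Sorcs3, and cluster 46 by Wnt16 and Ptchd4. Leading genes of cluster 38 (1165 nuclei) also included the thinDL markers Bst1 and Aqp1. It scored best for thinDL but passed too few markers, so thinDL here is a smaller class of 424 nuclei. The class thinAL joined cluster 9 (1723 nuclei) and cluster 18 (848 nuclei). Cluster 18 had thinDL as its second score and shared the leading genes Sorcs3 and Plpp4 with cluster 38. The border between both thin limbs is therefore uncertain. In all, 26 classes and clusters had at least 10 nuclei in every library, and named classes held 88.6% of the nuclei.

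By count of UMIs the inward rectifiers dominated, with 10 genes that held 50.9% of the UMIs of all 64. The 25 voltage-gated genes held 21.0%, the 9 two-pore genes 15.0% and the 12 auxiliary subunits 3.38%. The 8 Kcnma, Kcnn, Kcnt and Kcnu genes, mostly of calcium- or sodium-activated channels, held 9.70%. Kcnj16, Kcnj15 and Kcnk5 alone held 57.0%. These are shares of raw counts, which were not divided by gene length. The highest class was a tubular one for 21 of the 64 genes, a stromal or muscle class for 16, an unnamed cluster for 12, an immune class for 10, podocytes for 3, and endothelium and urothelium for 1 each. The level in the highest class exceeded the median over the 26 classes at least 10-fold for 51 genes. For 24 genes the highest class exceeded the next in 8 of 8 libraries, and for 18 genes the ranges of both classes over libraries did not overlap. These counts were not taken over all genes, so whether they are particular to channel genes was not tested. For a few rare genes the highest class rests on almost no counts. Kcnk4 and Kcnk7 led in BC with 1 UMI each, and Kcnab3 in TC/NK and Kcna2 in SMC/JGC with 3 UMIs each. Levels across classes are given as mean CPM ± SD over 8 libraries, with no test, because the classes come from the same libraries.

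**Figure D1:**
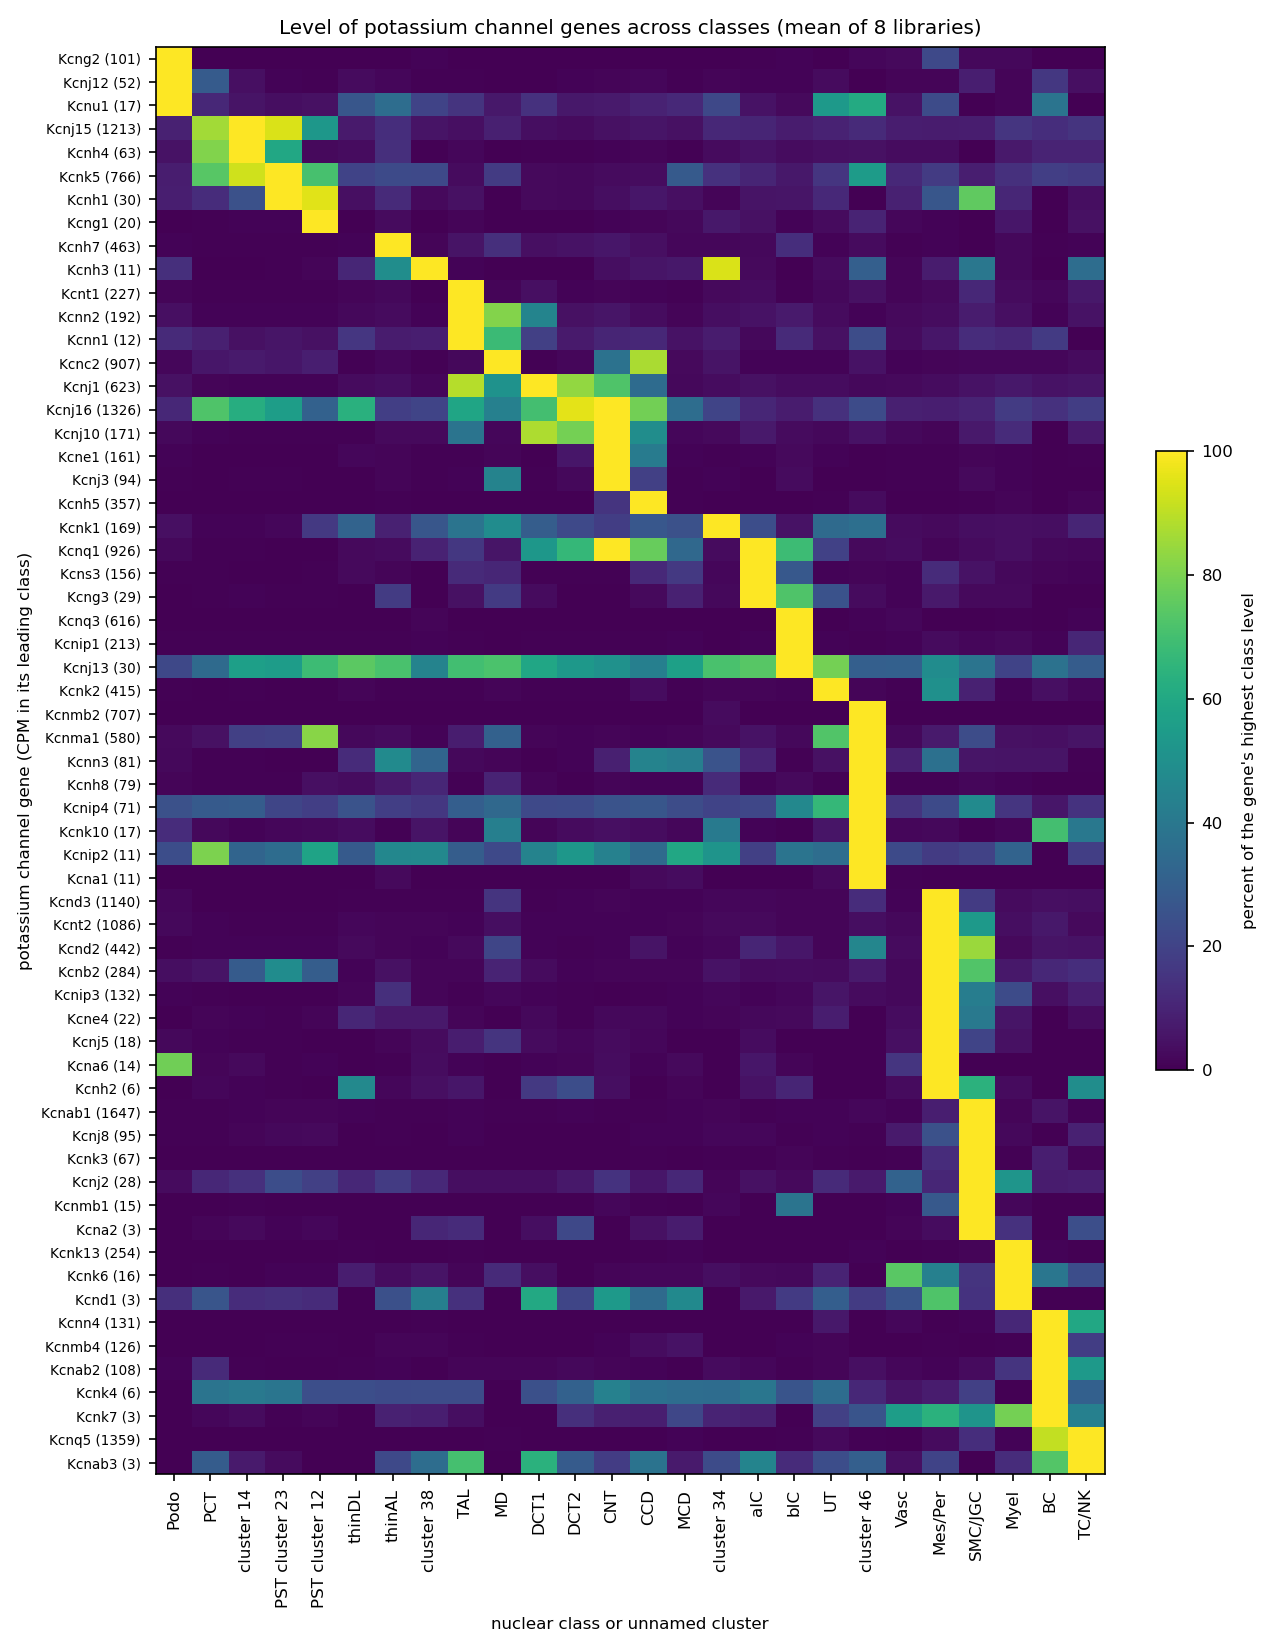
Level of 61 of the 64 potassium channel genes in 26 classes and clusters, as a percent of its highest class (color, mean CPM of 8 libraries), with the CPM in that class in parentheses. Most rows are bright in 1 to 3 neighboring classes: Kcnt1 in TAL, Kcnq3 in bIC, Kcnk13 in Myel and Kcnmb2 in cluster 46, while Kcnj13, Kcnip2 and Kcnip4 are spread over many.

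Among inward rectifiers of the distal nephron, Kcnj1 (ROMK, the apical channel that recycles or secretes potassium) lay at 623 ± 42.9 CPM in DCT1, 554 ± 29.9 in TAL, 522 ± 59.5 in DCT2 and 451 ± 41.3 in CNT. Kcnj1 was higher in DCT1 than in TAL in 8 of 8 libraries, while the ranges over libraries, 560 to 698 CPM and 502 to 594 CPM, overlapped. Kcnj10 and Kcnj16, whose products assemble into the basolateral channel of the distal convoluted tubule, were both highest in CNT. Kcnj10 lay at 171 ± 14.7 CPM in CNT, 150 ± 34.1 in DCT1 and 135 ± 27.5 in DCT2, with CNT above DCT1 in 6 of 8 libraries. Kcnj16 lay at 1326 ± 178 CPM in CNT and 1274 ± 159 in DCT2, with CNT above in 6 of 8 libraries. CCD followed at 1043 CPM, and Kcnj16 reached 959 ± 249 CPM in PCT and 842 CPM in thinDL. In cluster 38, which scored best for thinDL, Kcnj16 lay at 269 CPM. Over the 26 classes the profiles of Kcnj10 and Kcnj16 had a Spearman correlation of 0.17. This and the correlations below describe mean levels over classes, which share libraries and differ in depth, and carry no test. Kcnj3, which encodes a subunit of the G-protein-gated channel, was highest in CNT at 94.2 ± 25.6 CPM, and its partner Kcnj5 was highest in Mes/Per at 18.2 ± 3.82 CPM. As a measure of background, Kcnj1 was found in 82.2% of DCT1 nuclei (36.9% after thinning every nucleus to 1000 UMIs) and in 2.89% of Vasc nuclei (1.38% after thinning), a class that should lack it. Median depths were 4586 and 2071 UMIs, and the part of free RNA in low levels was not tested.

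In the proximal classes and in cluster 14, which the markers did not name, Kcnj15, an inward rectifier of the basolateral membrane, lay at 1213 ± 341 CPM in cluster 14, 1142 ± 410 in PST cluster 23, 1047 ± 193 in PCT and 642 ± 148 in PST cluster 12. The first 3 overlapped, and among the other classes Kcnj15 was highest in Myel at 186 ± 67.2 CPM, although thinAL cluster 18 alone held 263 ± 72.7 CPM. The part of free RNA in the Myel value was not tested, and nuclei of Myel had a median of 1936 UMIs. Slc12a1, the cotransporter gene of the thick limb, lay at 22864 CPM in TAL and still at 1182 in TC/NK, another immune class. Kcnk5, the two-pore channel that returns potassium beside bicarbonate transport, followed the classes of Kcnj15. It lay at 766 ± 269 CPM in PST cluster 23, 711 ± 209 in cluster 14 and 567 ± 213 in PCT. Its libraries spread widely, from 438 to 1140 CPM in PST cluster 23. Kcnh4, a voltage-gated channel of the ELK type, was highest in cluster 14 at 63.5 ± 37.1 CPM and in PCT at 51.5 ± 25.8. Kcng1, a silent subunit that modifies other voltage-gated channels, was highest in PST cluster 12, at 19.8 ± 8.26 CPM, 9.99 times the next class.

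Of the 8 Kcnma, Kcnn, Kcnt and Kcnu genes, 3 were highest in TAL (Kcnt1, Kcnn2 and Kcnn1). Kcnt1, opened by intracellular sodium, lay at 227 ± 77.1 CPM in TAL, 9.02 times the next class, and Kcnn2, a small-conductance calcium-activated channel, at 192 ± 36.5 CPM in TAL and 156 ± 53.5 in MD. Within TAL, Kcnt1 was uneven, with 362 ± 149 CPM in cluster 32 and 322 ± 117 in cluster 33 but 112 ± 31.0 in cluster 35 and 91.4 ± 29.2 in cluster 0. Kcnh7, of the ERG type, lay at 463 ± 318 CPM in thinAL, 7.32 times the next class, and 4041 of its 4058 UMIs there came from 1 cluster (cluster 9, 691 ± 494 CPM). Kcnc2, a fast voltage-gated channel, was highest in MD at 907 ± 279 CPM and in CCD at 790 ± 165, which overlapped, followed by CNT at 341 ± 77.3. Kcnh5, of the EAG type, marked CCD at 357 ± 82.1 CPM, 6.65 times CNT.

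Kcnq1, whose product pairs with KCNE1, lay at 926 ± 145 CPM in aIC and 924 ± 101 in CNT, without separation. Kcne1, the auxiliary subunit, was highest in CNT at 161 ± 26.6 CPM with CCD at 67.1 ± 20.6, and lay at 4.17 ± 2.49 CPM in bIC. Spearman's correlation of Kcnq1 with Kcne1 over the 26 classes was 0.65. Other genes of voltage-gated channels peaked in intercalated cells. Kcnq3, which encodes a subunit of the neuronal M-type channel, lay at 616 ± 410 CPM in bIC against 10.6 ± 4.13 in the next class, a ratio of 58.2. Kcnip1, a calcium-binding auxiliary subunit of Kcnd channels, was also highest in bIC at 213 ± 58.9 CPM, 9.41 times the next. Kcns3, another silent subunit, was highest in aIC at 156 ± 36.7 CPM with bIC at 42.8 ± 27.3.

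Kcnd3 and Kcnd2, A-type channel genes whose products oppose rapid depolarization, were highest in Mes/Per, while the much rarer Kcnd1 was not. Kcnd3 lay at 1140 ± 244 CPM in Mes/Per, 5.71 times SMC/JGC, and Kcnd2 at 442 ± 157 in Mes/Per and 377 ± 204 in SMC/JGC, which overlapped. Their auxiliary subunit Kcnip3 was highest in Mes/Per too, at 132 ± 9.30 CPM, and its profile over the 26 classes had a Spearman correlation of 0.71 with Kcnd3 and 0.64 with Kcnd2. The accessory gene Dpp6 had correlations of 0.06 and 0.02 with them. Mes/Per was not uniform: Kcnd3 reached 1882 ± 200 CPM in cluster 28, Kcnd2 1471 ± 437 in cluster 39, and the sodium-activated Kcnt2 2052 ± 549 in cluster 30. SMC/JGC was marked by Kcnab1, a beta subunit of Shaker channels, at 1647 ± 563 CPM, 12.1 times Mes/Per. Kcnj8, the pore of the vascular ATP-sensitive channel, lay at 95.1 ± 22.9 CPM there, 4.03 times Mes/Per, with its sulfonylurea receptor Abcc9 highest in the same class at 562 ± 131 CPM and a Spearman correlation of 0.61 between both profiles. Kcnj2, an inward rectifier of vessels, lay at 27.9 ± 13 CPM there, at 14.5 ± 5.37 in Myel and at 8.78 ± 4.45 in Vasc. Single clusters held more of Kcnj2, with 59.9 ± 25.9 CPM in Mes/Per cluster 27 (26 UMIs) and 37.6 ± 35.0 in Vasc cluster 37 (67 UMIs). Kcnmb1, the smooth muscle beta subunit of the large-conductance (BK) channel, was rare, at 14.9 ± 11.5 CPM in SMC/JGC.

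The BK pore gene Kcnma1, opened by calcium and voltage and known for flow-induced potassium secretion, was highest in cluster 46 at 580 ± 133 CPM, in PST cluster 12 at 478 ± 178 and in UT at 423 ± 103, with overlapping ranges. Its beta subunit Kcnmb2 lay at 707 ± 147 CPM in cluster 46, 34.9 times the next class, and Kcnmb4 was highest in BC at 126 ± 96.8 (35 UMIs). Over the 26 classes Kcnma1 had Spearman correlations of 0.05 with Kcnmb1, −0.12 with Kcnmb2 and −0.22 with Kcnmb4. Kcnk2, a mechanosensitive two-pore channel, was highest in UT at 415 ± 101 CPM, 2.00 times Mes/Per as a whole, although Mes/Per cluster 39 alone held 837 ± 79.8 CPM. Kcnk1 was highest in cluster 34 at 169 ± 36.0 CPM. In podocytes Kcng2 led at 101 ± 24.1 CPM and Kcnj12 at 51.7 ± 15.7.

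Immune classes led for 10 genes, several of them on few counts. In BC (177 nuclei) the lead rested on 34 UMIs for Kcnab2, 35 for Kcnmb4 and 39 for Kcnn4. In Myel it rested on 16 UMIs for Kcnd1, against 1150 for Kcnk13. Kcnk13, a two-pore channel of microglia and macrophages, lay at 254 ± 44.0 CPM in Myel, 77.9 times the next class. Kcnk6, of the same family, was highest in Myel at 16.3 ± 4.19 CPM beside Vasc at 12.2 ± 2.43. Kcnq5 reached 1359 ± 279 CPM in TC/NK and 1235 ± 533 in BC, without separation, and also 1304 ± 503 in the small Mes/Per cluster 27. Kcnn4, the calcium-activated channel of lymphocytes, lay at 131 ± 94.6 CPM in BC and 78.5 ± 43.2 in TC/NK.

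The remaining genes were low in most classes or spread. The small-conductance channels Kcnn1 and Kcnn3 were highest in TAL at 12.4 ± 3.43 CPM and in cluster 46 at 81.2 ± 31.1 CPM, and the small Vasc cluster 36 held Kcnn3 at 222 ± 145 CPM. Kcnh1, of the EAG type, lay at 29.8 ± 29.0 CPM in PST cluster 23 and 28.5 ± 20.9 in PST cluster 12, with an SD near its mean, while Mes/Per cluster 27 alone held it at 259 ± 150 CPM (105 UMIs). Kcnj13, an inward rectifier of transporting epithelia, was highest in bIC at 30.1 ± 10.7 CPM, beside UT at 23.9 ± 6.11 and thinDL at 22.5 ± 15.8, and Mes/Per cluster 39 alone held 45.1 ± 16.7. Kcnip2, an auxiliary subunit of Kcnd channels, reached 11.1 ± 9.98 CPM in cluster 46 and 8.90 ± 3.04 in PCT. Further genes held 175 to 1139 UMIs each. Kcnab2, a beta subunit, led in BC at 109 ± 60.3 CPM, and Kcng3, a silent subunit, in aIC at 28.8 ± 10.3. Kcnu1 led in Podo at 16.5 ± 7.07 CPM, Kcnh3 in cluster 38 at 10.6 ± 6.57, Kcnh2 in Mes/Per at 5.68 ± 3.04 and Kcnd1 in Myel at 3.47 ± 1.90.

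Genes scarce in the kidney as a whole could be concentrated in very few nuclei. In a cluster of 53 nuclei (cluster 44, led by Cdh19 and Lgi4) lay 83.6% of all UMIs of Kcna1, 67.2% of Kcna2, 30.8% of Kcnh8 and 15.0% of Kcna6, all of them voltage-gated channels. Kcna1 reached 732 CPM there, with an exact Poisson 95% interval of 608 to 874. Cluster 44 held 122 of the 146 UMIs of Kcna1 and 90 of the 134 of Kcna2. Without it both genes would have stayed below the UMI count required for inclusion. Their high shares therefore follow in part from that rule. Kcnh8 (202 of 656 UMIs there) and Kcna6 (76 of 505) passed the rule without this cluster. In 76 nuclei like adipocytes lay 34.5% of all UMIs of Kcnk3, an acid-sensitive two-pore channel, at 396 CPM (338 to 461), while SMC/JGC was its highest larger class at 66.5 ± 20.9 CPM. These intervals cover counting error only. Both clusters were too small for tests.

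The study asked how kidney RNA differs between rest and active phase and how loss of the tubular clock changes it. For each library all nuclei were summed, and edgeR's quasi-likelihood test with Benjamini-Hochberg adjustment over all protein-coding genes gave log2 fold changes ± standard errors. Levels beside these tests are CPM scaled by TMM (trimmed mean of M values) factors, which align libraries of unlike makeup. A change is called where the adjusted p was under 0.05, and all 64 genes could be tested. In such sums fewer cells of a type and less RNA per cell cannot be told apart. The contrasts below share libraries, so they are not independent of each other. With 2 animals per group, p-values reflect the spread between these few mice.

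Between ZT4 and ZT16, averaged over genotypes, 2 of the 64 genes were called by edgeR, both of them falls, where 0.514% of all genes were called. Kcnc2 lay at 90.7 and 92.5 CPM in Ctrl and 62.9 and 80.2 in cKOt at ZT4, against 44.5 and 46.5 in Ctrl and 43.4 and 41.9 in cKOt at ZT16. Every library of ZT4 was above every one of ZT16. Its fitted change was −0.88 ± 0.09 (edgeR, adjusted p = 0.0128). Kcnma1 lay at 99.1 and 123 CPM in Ctrl and 115 and 110 in cKOt at ZT4, and at 67.0 and 54.4 in Ctrl and 63.1 and 51.7 in cKOt at ZT16, again without overlap, with a change of −0.92 ± 0.11 (edgeR, adjusted p = 0.0185). With 1 library left out the change of Kcnc2 ran from −0.96 to −0.77 and that of Kcnma1 from −0.997 to −0.839. The call of Kcnc2 was lost without Ctrl ZT4 replicate 1 (adjusted p = 0.0538), Ctrl ZT16 replicate 1 (0.0560), cKOt ZT16 replicate 1 (0.0516) or cKOt ZT16 replicate 2 (0.0546). That of Kcnma1 was lost without Ctrl ZT4 replicate 1 (0.0529) or 2 (0.0579), cKOt ZT4 replicate 2 (0.0561), Ctrl ZT16 replicate 2 (0.0662) or cKOt ZT16 replicate 2 (0.0608). At an unadjusted p under 0.05 stood 17 of the 64 genes (6 of them higher at ZT16), where 13.6% of all genes did, and DESeq2 called 10 (4 higher and 6 lower), where it called 3.18% of all genes. The auxiliary subunit Kcne4 had a fitted change of 1.08 ± 0.20 (edgeR, adjusted p = 0.0616) and did not pass.

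Within Ctrl alone, ZT16 against ZT4, Kcnc2 fell by 1.01 ± 0.13 on the log2 scale (edgeR, adjusted p = 0.0372), the only call among the 64, where 0.148% of all genes were called. At an unadjusted p under 0.05 stood 15 genes, where 9.89% of all genes did, and DESeq2 called 5, where it called 1.44%. The edgeR call of Kcnc2 was lost without either Ctrl ZT4 library (adjusted p = 0.200 and 0.194), either Ctrl ZT16 library (0.222 and 0.250) or either cKOt ZT16 library (0.0737 and 0.0791), and with a replicate block (0.0637). Within cKOt no gene of the 64 was called by edgeR, where 0% of all genes were. There 15 had an unadjusted p under 0.05, where 8.31% of all genes did (9 without cKOt ZT16 replicate 1, where 4.48% did), and DESeq2 called 4, where it called 1.02%. Kcnc2 had a value of −0.75 ± 0.13 and Kcnma1 of −0.97 ± 0.16. A dependence of the time difference on genotype was called for none of the 64 by edgeR, where 0.0183% of all genes were called. An unadjusted p under 0.05 was found for 8, where 4.34% of all genes had one, and DESeq2 called 2, where it called 0.294%. For Kcnc2 this interaction was 0.26 ± 0.19.

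**Figure D2:**
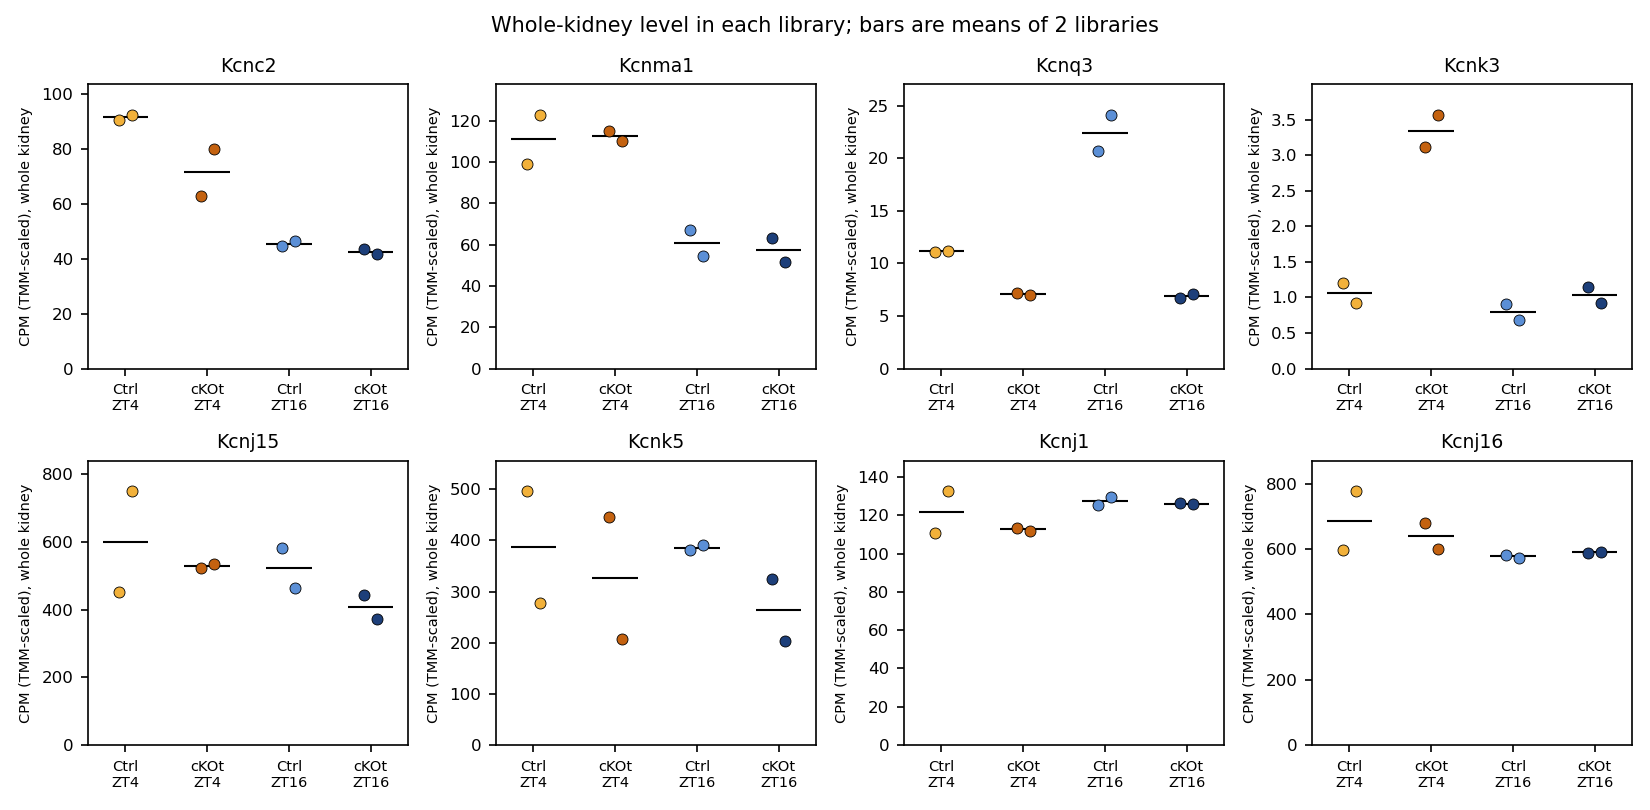
Whole-kidney level (CPM scaled by TMM, y axis) of 8 potassium channel genes in each library, with points for the 2 libraries of each group and bars for their mean. Kcnc2 and Kcnma1 are higher in all 4 libraries of ZT4 than in all 4 of ZT16, Kcnq3 is highest in Ctrl at ZT16 (20.7 and 24.1 CPM), and Kcnk3 in cKOt at ZT4 (3.12 and 3.56 CPM), while Kcnj1 and Kcnj16 differ little.

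Between genotypes, averaged over time points, Kcnq3 fell in cKOt and was the only one of the 64 called, where 0.930% of all genes were. It lay at 11.1 and 11.2 CPM in Ctrl at ZT4 and 20.7 and 24.1 at ZT16. In cKOt it lay at 7.21 and 7.03 CPM at ZT4 and at 6.70 and 7.11 at ZT16. The genotypes did not overlap, and the fitted change was −1.17 ± 0.10 (edgeR, adjusted p = 0.00161), which held under each alternative run. At ZT16 the change was −1.70 ± 0.15 (edgeR, adjusted p = 0.00371), the only call of that contrast, where 0.168% of all genes were called. At ZT16 DESeq2 called 2 of the 64, where it called 1.06% of all genes, and 10 had an unadjusted p under 0.05, where 6.11% did (6 without cKOt ZT16 replicate 1, where 4.23% did). Without cKOt ZT16 replicate 1 the change of Kcnq3 at ZT16 was −1.65 (adjusted p = 0.0677). The interaction for Kcnq3 was −1.05 ± 0.21 (edgeR, adjusted p = 0.460). In all, 16 of the 64 fitted changes between genotypes were positive, with a median of −0.18, against 49.9% positive among all genes, and 16 had an unadjusted p under 0.05, where 10% of all genes did. Without Ctrl ZT4 replicate 2 the median was −0.11, and 9 had an unadjusted p under 0.05, where 7.31% of all genes did. DESeq2 called 4 for this average (2 higher and 2 lower in cKOt), where it called 2.63%.

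At ZT4 no gene of the 64 was called between genotypes by edgeR, where 0.440% of all genes were, although 14 had an unadjusted p under 0.05, where 8.83% of all genes did, and DESeq2 called 5, where it called 2.16%. Without Ctrl ZT4 replicate 2 the 14 became 6, where 5.69% of all genes had such a p. The smallest p was that of Kcnk3, at 1.20 and 0.914 CPM in Ctrl and 3.12 and 3.56 in cKOt, a difference of 1.67 ± 0.29 (edgeR, adjusted p = 0.0579). It passed with DESeq2 (0.00250), without the filter on low counts (0.0270) and without doublets (0.0477), and its time difference within cKOt passed with DESeq2 (−1.69, adjusted p = 0.00354). Nuclei like adipocytes, which held a large share of its UMIs, made up 0.241 and 0.409% of the nuclei of the cKOt libraries of ZT4 and at most 0.0469% of any other library. Without these nuclei the difference was 0.33 (edgeR, adjusted p = 0.853).

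**Figure D3:**
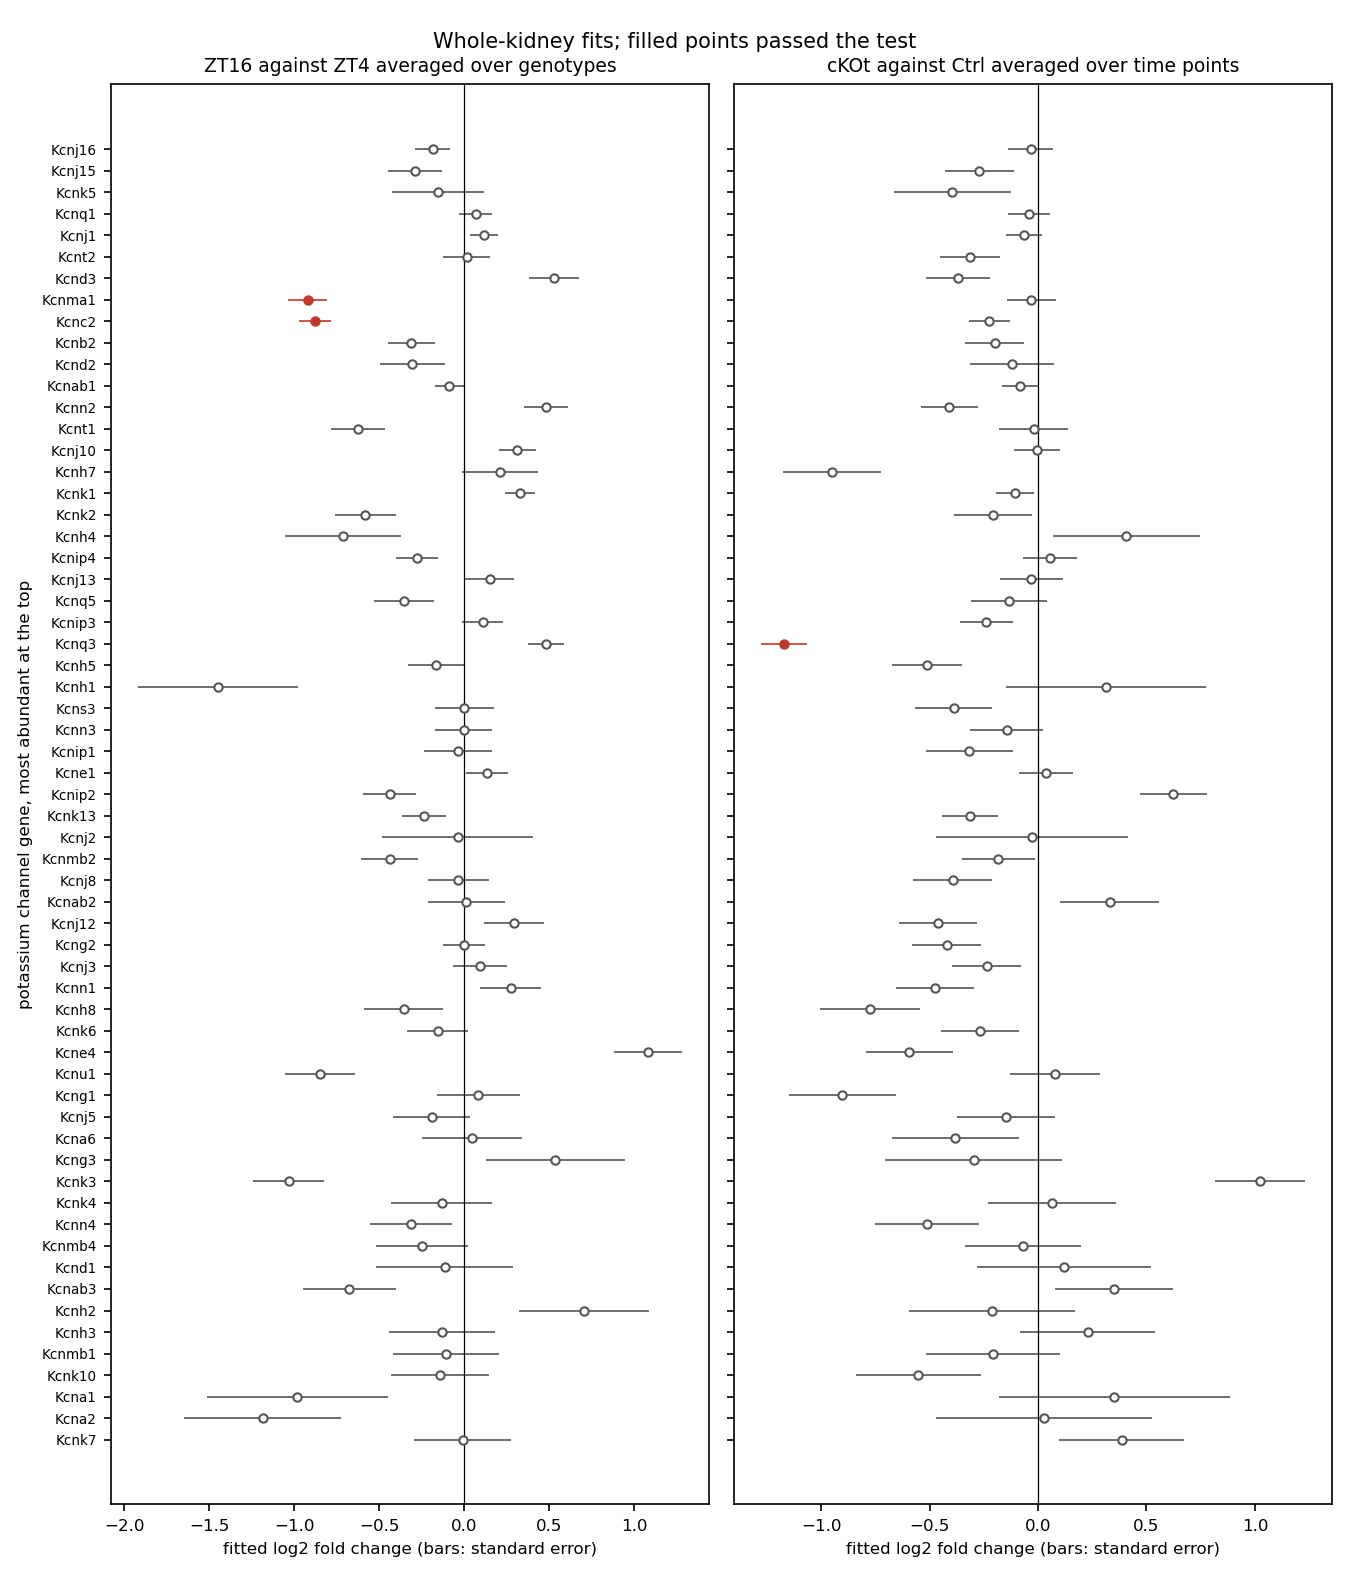
Fitted log2 fold change of 61 of the 64 potassium channel genes in whole-kidney sums, ordered by mean CPM over libraries (scaled by TMM) from the top, with standard errors as bars, for ZT16 against ZT4 (left) and cKOt against Ctrl (right). Filled points passed the test: Kcnma1 and Kcnc2 on the left and Kcnq3 on the right.

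In whole-kidney sums Kcnj1, Kcnj16, Kcnj10, Kcnq1, Kcnk5 and Kcnj15 were not called in any contrast by edgeR. Kcnj1 lay between 111 and 133 CPM in all 8 libraries, with a fitted change of −0.06 ± 0.08 between genotypes and 0.12 ± 0.08 between times. Kcnj16 had −0.03 ± 0.10 and −0.18 ± 0.10, Kcnj10 −0.01 ± 0.11 and 0.31 ± 0.11, and Kcnq1 −0.04 ± 0.10 and 0.07 ± 0.10. Kcnk5 had a wide spread within groups, such as 496 and 277 CPM in Ctrl at ZT4 and 446 and 207 in cKOt at ZT4, and its change between genotypes was −0.39 ± 0.27. Kcnj15 ranged from 371 to 749 CPM, with −0.27 ± 0.16. Of genes that work beside these channels, 9 of 10 accessory partners, 15 of 16 pumps and cotransporters of potassium, and 10 of 10 regulators (genes of the Wnk kinase, ubiquitin ligase and aldosterone pathways) could be tested. None was called by edgeR in any of the 7 contrasts. For the genotype average, 2 of 9, 4 of 15 and 0 of 10 had an unadjusted p under 0.05, where 10% of all genes did, with median changes of −0.24, −0.12 and −0.12 against −1.74e-04 over all genes. For the time average the counts were 1, 3 and 2, where 13.6% of all genes did, with medians of −0.22, 0.06 and 0.05 against −0.00308.

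Within classes, UMIs were summed per class and library and each class was tested alone, which gave 569 pairs of a gene and a class over 61 of the genes. Averaged over genotypes, 20 of these pairs (3.51%) were called between ZT16 and ZT4, where 0.836% of all pairs were, 2 rising and 18 falling, for 9 genes in 11 classes. Kcnc2 and Kcnma1 made up 13 of them. Class by class, the share of all genes called was 1.70% in PCT, 0.0767% in PST cluster 12, 0.433% in PST cluster 23, 1.13% in cluster 14, 3.76% in TAL, 1.63% in CNT, 2.57% in DCT1, 0.576% in Mes/Per, 1.73% in Vasc, 0.505% in cluster 34 and 0.0149% in cluster 46. In single contrasts 7 of 523 pairs were called between times in Ctrl (0.357% of all pairs) and 1 of 497 in cKOt (0.115%), all of them falls. These counts were unstable. For the fits that left out 1 library the share of all pairs is not given here, so whether their moves are particular to channel genes was not tested. In Ctrl the 7 became 1 without either Ctrl ZT16 library, 3 or 4 without Ctrl ZT4 replicate 1 or 2, 14 without either cKOt ZT4 library and 15 with DESeq2, where it called 0.433% of all pairs. In cKOt the 1 became 0 without cKOt ZT16 replicate 1, 3 or 2 without Ctrl ZT4 replicate 1 or 2, 6 or 2 without cKOt ZT4 replicate 1 or 2, and 9 with DESeq2, where it called 0.209%. The interaction was called for none of the 569 pairs by edgeR, where 0.0246% of all pairs were, and for none by DESeq2. By edgeR 50 pairs had an unadjusted p under 0.05, where 4.31% of all pairs had.

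Kcnc2 fell at ZT16 in PCT, PST cluster 23 and TAL, among others, and its changes in CCD and MD, the classes where it is highest, did not pass. In PCT it lay at 126 and 68.5 CPM in Ctrl and 66.7 and 82.9 in cKOt at ZT4, and at 30.9 and 30.5 in Ctrl and 23.7 and 14 in cKOt at ZT16, a change of −1.82 ± 0.22 (edgeR, adjusted p = 0.00536). In PST cluster 23 the Kcnc2 ranges were 74.4 to 96.8 and 21.9 to 34.5 CPM, with −1.51 ± 0.13 (adjusted p = 0.00238), and in TAL 21.6 to 35.0 and 9.07 to 12.8, with −1.35 ± 0.19 (adjusted p = 5.83e-04). None of these 3 ranges overlapped between times, and these calls held under all alternatives run, which for PST cluster 23 did not include resolution 1.0. In PST cluster 12 Kcnc2 had −1.09 ± 0.21 (adjusted p = 0.120) and did not pass, with 59.8 to 137 CPM at ZT4 and 27.0 to 72.9 at ZT16. In CCD it lay at 584 to 1081 CPM at ZT4 and 612 to 839 at ZT16, with −0.24 ± 0.13 (adjusted p = 0.639). The difference between the PCT and CCD changes was itself called, at −1.58 ± 0.24 (edgeR with a library block, adjusted p = 0.00329), where 0.648% of genes were called. Kcnc2 also fell in cluster 14 (−1.47), Mes/Per (−1.43), Vasc (−1.32) and CNT (−0.45). In Vasc its level was 13.2 to 16.0 CPM at ZT4 and 2.97 to 8.94 at ZT16, and the part of free RNA from other nuclei in such low levels was not tested. Leaving out 1 library ended the call in cluster 14 only for cKOt ZT16 replicate 1 (adjusted p = 0.104). It ended it in CNT for each of the 8 (0.0672 to 0.144), in Vasc for both Ctrl libraries of each time and cKOt ZT16 replicate 2 (0.0631 to 0.112), and in Mes/Per for all but cKOt ZT4 replicate 1 and cKOt ZT16 replicate 2 (0.0520 to 0.158). The call in Mes/Per was also lost without doublets (0.0968), and that in CNT with DESeq2 (0.121).

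Kcnma1 fell at ZT16 in proximal nuclei and rose in the thick limb. In PST cluster 23 it lay at 132 and 164 CPM in Ctrl and 171 and 208 in cKOt at ZT4, and at 47.6 and 42.1 in Ctrl and 72.6 and 77.7 in cKOt at ZT16, a change of −1.53 ± 0.13 (edgeR, adjusted p = 0.00238) that held under all alternatives run. Those did not include resolution 1.0, where the PST clusters were drawn anew. Kcnma1 in PST cluster 12, where it is most abundant among proximal classes, lay at 652 and 779 CPM in Ctrl and 583 and 518 in cKOt at ZT4, and at 348 and 352 in Ctrl and 271 and 328 in cKOt at ZT16, with −0.95 ± 0.14 (adjusted p = 0.0401). The ranges did not overlap, yet this call was lost in 6 of the 8 fits that left out 1 library (each library but the 2 of cKOt at ZT4, adjusted p 0.117 to 0.323). In TAL the value was 0.55 ± 0.13 (adjusted p = 0.0288), lost without Ctrl ZT4 replicate 2 (0.112), cKOt ZT4 replicate 2 (0.106), Ctrl ZT16 replicate 1 (0.0841) or 2 (0.0602), or cKOt ZT16 replicate 1 (0.192). The difference between TAL and PST cluster 23 in this time change was 2.10 ± 0.18 (edgeR with a library block, adjusted p = 7.88e-04), where 1.20% of genes were called. Kcnma1 also fell in PCT (−1.36), cluster 14 (−1.46) and Mes/Per (−1.16). These calls were lost without 4, 4 and 7 of the 8 libraries in turn, with the highest adjusted p at 0.0695 for PCT (without Ctrl ZT16 replicate 2), 0.148 for cluster 14 (without cKOt ZT16 replicate 1) and 0.162 for Mes/Per (without Ctrl ZT16 replicate 2). The Kcnma1 call in Mes/Per was also lost without doublets (0.0546) and with a replicate block (0.0677), and that in PST cluster 12 with the block (0.0523). In UT and cluster 46, where Kcnma1 is also abundant, its values were −0.45 ± 0.19 and −0.04 ± 0.21 and did not pass.

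**Figure D4:**
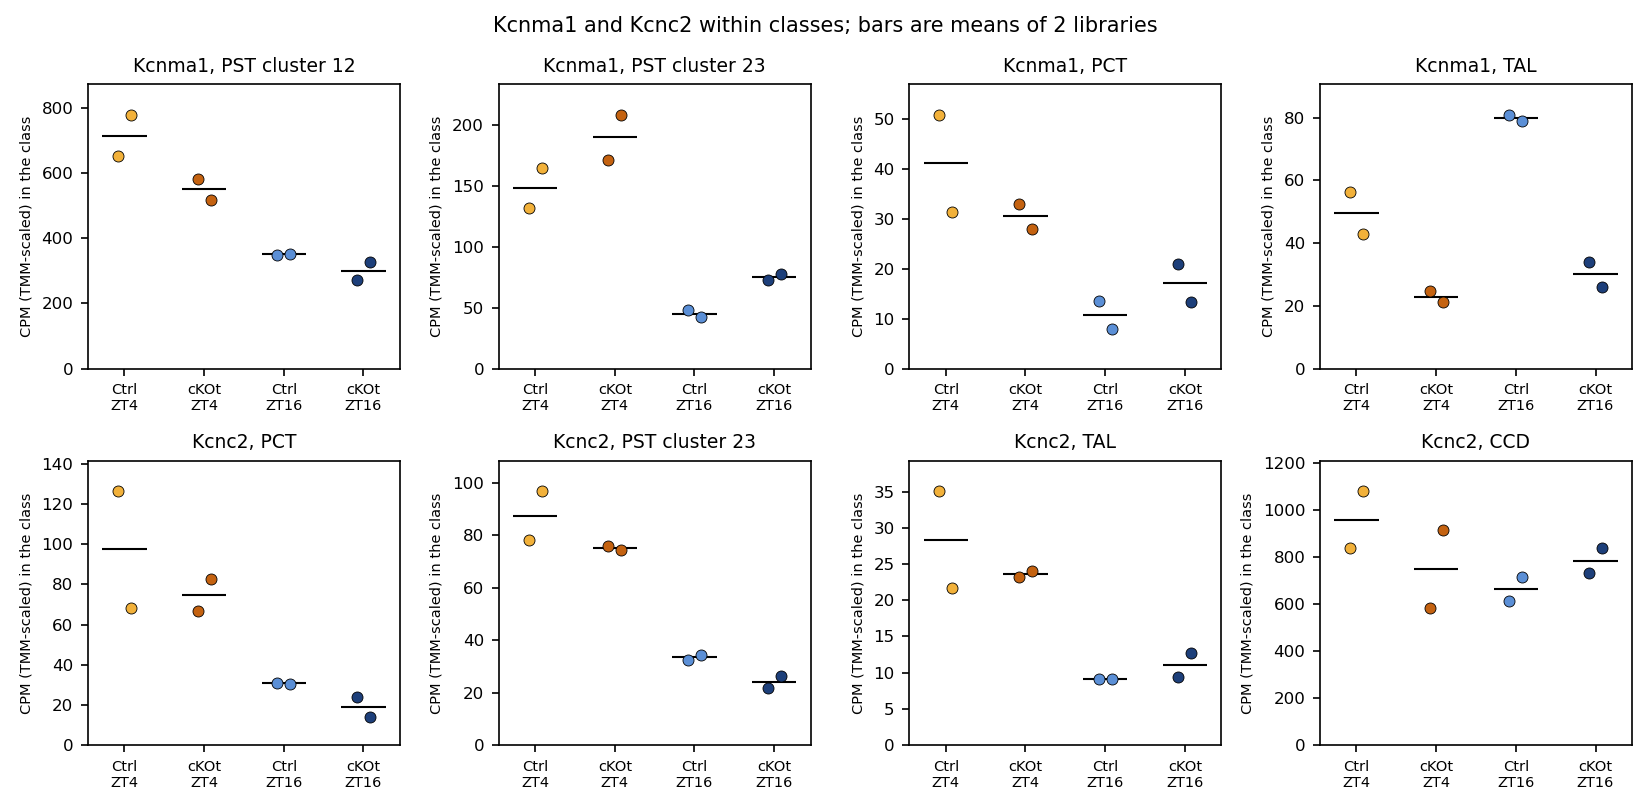
Kcnma1 (top) and Kcnc2 (bottom) in 4 classes each, as CPM scaled by TMM within the class (y axis), with a point per library and bars for the mean of 2. Proximal panels drop from ZT4 to ZT16 in both genotypes, Kcnma1 in TAL is lower in cKOt at both times, and Kcnc2 in CCD overlaps between times (584 to 1081 and 612 to 839 CPM).

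Further time calls were single. Kcnt1 in TAL lay at 272 and 276 CPM in Ctrl and 281 and 343 in cKOt at ZT4, and at 178 and 146 in Ctrl and 160 and 158 in cKOt at ZT16, a change of −0.86 ± 0.10 (edgeR, adjusted p = 1.27e-04) that held under all alternatives run. It was called in Ctrl alone (−0.76, adjusted p = 0.0132) and in cKOt alone (−0.97, adjusted p = 0.00434), where 1.24% and 0.543% of genes in TAL were called. In cluster 32, where Kcnt1 is highest, it lay at 522 and 405 CPM in Ctrl and 466 and 575 in cKOt at ZT4, and at 270 and 183 in Ctrl and 231 and 241 in cKOt at ZT16. Kcnb2, a delayed rectifier, fell in Mes/Per by 1.18 ± 0.16 on the log2 scale (edgeR, adjusted p = 0.00828), from 246 to 637 CPM at ZT4 to between 134.0 and 191 at ZT16. In Mes/Per cluster 28, Kcnb2 lay at 607 and 709 CPM in Ctrl and 416 and 459 in cKOt at ZT4 and at 133 to 224 at ZT16. Without cKOt ZT16 replicate 1 the adjusted p for Mes/Per was 0.0868. Kcnq1 in DCT1 rose from 371 to 446 CPM at ZT4 to 495 to 668 at ZT16, a change of 0.55 ± 0.12 (edgeR, adjusted p = 0.0156), lost without Ctrl ZT4 replicate 2 (0.0986), cKOt ZT4 replicate 2 (0.0674) or cKOt ZT16 replicate 2 (0.0992). Kcnip4 in PCT (−0.72), Kcnk5 in Vasc (−0.97), Kcnmb2 in cluster 34 (−2.68) and Kcnh8 in cluster 46 (−5.02) were called too. These last 4 calls were lost in 3 to 7 of the fits that left out 1 library, with adjusted p up to 0.198 (Kcnip4, without cKOt ZT16 replicate 1), 0.143 (Kcnk5, without Ctrl ZT4 replicate 1), 0.472 (Kcnmb2, without cKOt ZT4 replicate 2, where its value was −1.71) and 0.357 (Kcnh8, without cKOt ZT4 replicate 2). Kcnh8 was at 0 in 3 of the 4 libraries of ZT16 in cluster 46, so its fitted value is no measure of size. With DESeq2 Kcnmb2 in cluster 34 had −2.75 (adjusted p = 0.167). At resolution 1.0 the number 34 belonged to the nuclei led by Wnt16 and Ptchd4, so that clustering gave no check of this call. Kcnip4 in PCT did not pass at resolution 1.0 (0.0825) or with a replicate block (0.0598), nor Kcnk5 in Vasc with DESeq2 (0.106), nor Kcnh8 in cluster 46 with the block (0.0901).

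Between genotypes within classes, 9 pairs (1.58%) were called, where 0.657% of all pairs were, for 8 genes in 5 classes, and all 9 were lower in cKOt. All 5 were tubular classes, in which 0.504% (bIC), 0.826% (thinAL), 1.05% (TAL), 2.00% (PST cluster 12) and 1.35% (PCT) of all genes were called. In single contrasts 3 of 505 pairs were called at ZT4 (0.339% of all pairs) and 6 of 512 at ZT16 (0.196%), all of them lower in cKOt. The 3 at ZT4 became 0 without Ctrl ZT4 replicate 1 and 1 without Ctrl ZT4 replicate 2 or cKOt ZT4 replicate 1. The 6 at ZT16 became 3 without Ctrl ZT16 replicate 1 or either cKOt ZT16 library. The share of all pairs in these fits is not given here, so whether the moves at both times are particular to channel genes was not tested.

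Kcnq3 in bIC lay at 567 and 628 CPM in Ctrl and 305 and 360 in cKOt at ZT4, and at 1078 and 1430 in Ctrl and 267 and 327 in cKOt at ZT16. Ctrl was above cKOt without overlap at both times, and the averaged change was −1.46 ± 0.14 (edgeR, adjusted p = 1.88e-05). The share of bIC among nuclei ranged from 1.10 to 1.48% over libraries. The interaction was −1.23 ± 0.29 (adjusted p = 0.434), so the larger difference at ZT16 (−2.08 ± 0.21) than at ZT4 (−0.85 ± 0.20) did not pass as a dependence on time. Kcns3 in bIC lay at 47.2 to 73.7 CPM in Ctrl and 8.14 to 40.5 in cKOt, a change of −1.78 ± 0.32 (adjusted p = 0.0107). That call was lost without Ctrl ZT4 replicate 1 (0.0700), Ctrl ZT16 replicate 1 (0.0752) or 2 (0.0797), or cKOt ZT16 replicate 2 (0.109).

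Kcnh7 in thinAL lay at 544 to 1003 CPM in Ctrl and 112 to 283 in cKOt, a change of −1.86 ± 0.19 (edgeR, adjusted p = 1.31e-05). In cluster 9 alone, the thinAL cluster that carries Kcnh7, the level was 748 and 998 CPM in Ctrl and 233 and 408 in cKOt at ZT4, and 1052 and 1583 in Ctrl and 163 and 348 in cKOt at ZT16. The groups did not overlap. thinAL made up 1.11 to 4.13% of nuclei over libraries, lowest in cKOt ZT16 replicate 1, and the class call held without that library. In whole-kidney sums Kcnh7 had −0.95 ± 0.23 (adjusted p = 0.127) and did not pass. In bIC, where Kcnh7 lies at 59.8 ± 15.3 CPM, its value was 0.51 ± 0.22 (adjusted p = 0.716).

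Kcnma1 in TAL lay at 56.2 and 42.8 CPM in Ctrl and 24.6 and 21.3 in cKOt at ZT4, and at 80.8 and 78.8 in Ctrl and 33.9 and 26.1 in cKOt at ZT16, a change of −1.25 ± 0.13 (edgeR, adjusted p = 7.02e-05). In PST cluster 23 the genotype value of Kcnma1 was 0.55 ± 0.13 (adjusted p = 0.0686) and in PST cluster 12 −0.30 ± 0.14 (adjusted p = 0.419). The differences between TAL and these were −1.79 ± 0.18 (edgeR with a library block, adjusted p = 3.74e-04), where 1.28% of genes were called, and −0.92 ± 0.18 (adjusted p = 0.0261), where 1.37% were. Calls of Kcnq3 in bIC, Kcnh7 in thinAL and Kcnma1 in TAL held under all alternatives run.

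**Figure D5:**
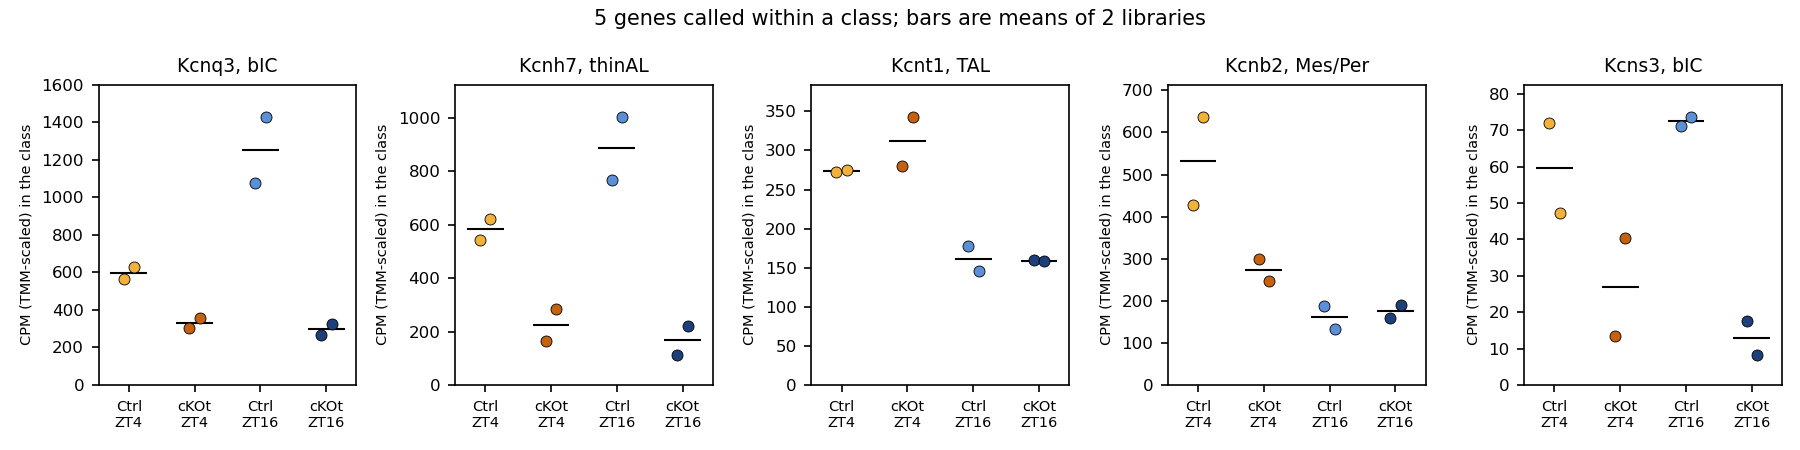
Level within the class (CPM scaled by TMM, y axis) of 5 potassium channel genes that were called in that class, with a point per library and bars for the mean of 2. Kcnq3, Kcnh7 and Kcns3 are lower in cKOt than in Ctrl, whereas Kcnt1 and Kcnb2 are lower at ZT16 than at ZT4.

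Kcnk5 in PST cluster 12 had a change of −0.98 ± 0.21 (edgeR, adjusted p = 0.0400) and in thinAL of −0.84 ± 0.19 (adjusted p = 0.0311). In PST cluster 12 it lay at 546 to 838 CPM in Ctrl and 255 to 476 in cKOt, without overlap. That call was lost without either library of Ctrl at ZT4 (0.148 and 0.0623), Ctrl at ZT16 (0.143 and 0.0819) or cKOt at ZT16 (0.0574 and 0.165). The call in thinAL was lost without Ctrl ZT4 replicate 1 (0.347), cKOt ZT4 replicate 2 (0.106), Ctrl ZT16 replicate 1 (0.134) or 2 (0.0874), or cKOt ZT16 replicate 2 (0.315). In PST cluster 23 the value was −0.71 ± 0.24 (adjusted p = 0.222), and the difference between both PST clusters was not called (−0.28 ± 0.11, edgeR with a library block, adjusted p = 0.269). Kcnj12 in PCT (−0.84) and Kcnh8 in PST cluster 12 (−2.09) were called too, at up to 27.8 and 9.26 CPM in any library. The call of Kcnj12 was lost without either library of Ctrl at ZT4, Ctrl at ZT16 or cKOt at ZT16 (0.0520 to 0.133), and that of Kcnh8 without any library but cKOt ZT4 replicate 2 (0.0510 to 0.174) and with DESeq2 (0.0718).

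Promoter sequences are shown for 4 genes that were called within classes. Kcnc2, Kcnma1 and Kcnh7 each had a call that held in all 8 fits that left out 1 library. No call of Kcnk5 held in more than 3 of them. A match is a description of letters, not of a site in use. The heterodimer of BMAL1 and CLOCK binds the E-box CACGTG, and the genes it drives include regulators that bind the ROR half-site AGGTCA and the D-box TTATGTAA. All 3 were searched on both strands in 300 bases of RefSeq sequence (250 before to 50 after each start, build GRCm38.p6), which matched 46 of the 64 genes by symbol, with 68 starts. The E-box was in 10.3% of these promoters (6 genes: Kcnab1, Kcne4, Kcnh4, Kcnj2, Kcnk5 and Kcnn4), against 7.15% of 32851 promoters of all genes. The ROR half-site was in 5.88% (Kcnh1, Kcnip4, Kcnj16 and Kcnk10) against 16.3%, and the D-box in 0% against 0.938%. Kcnq3 and Kcnt1 were not in this set. In the sequences below, read 5′ to 3′ on the gene's strand, capitals mark the E-box. Kcnk5 (chr14:20181733-20182032, minus strand) holds it from base 27 after the start. Kcnc2 (chr10:112269767-112270066, plus strand, the most upstream of 4 listed starts), Kcnma1 (chr14:24004156-24004455, minus strand) and Kcnh7 (chr2:63184238-63184537, minus strand) held none of the 3 motifs in this window.
Kcnk5: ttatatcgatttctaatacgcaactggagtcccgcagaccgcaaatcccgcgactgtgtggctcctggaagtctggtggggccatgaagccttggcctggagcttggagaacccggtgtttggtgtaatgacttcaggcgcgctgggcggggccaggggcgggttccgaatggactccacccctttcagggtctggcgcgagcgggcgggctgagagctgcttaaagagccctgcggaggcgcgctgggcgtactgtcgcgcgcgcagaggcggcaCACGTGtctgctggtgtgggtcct
Kcnc2: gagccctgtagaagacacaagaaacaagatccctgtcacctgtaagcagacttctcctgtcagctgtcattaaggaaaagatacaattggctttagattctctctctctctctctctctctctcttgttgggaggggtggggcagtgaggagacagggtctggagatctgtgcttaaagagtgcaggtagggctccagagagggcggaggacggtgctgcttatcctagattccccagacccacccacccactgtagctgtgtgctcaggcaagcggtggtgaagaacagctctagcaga
Kcnma1: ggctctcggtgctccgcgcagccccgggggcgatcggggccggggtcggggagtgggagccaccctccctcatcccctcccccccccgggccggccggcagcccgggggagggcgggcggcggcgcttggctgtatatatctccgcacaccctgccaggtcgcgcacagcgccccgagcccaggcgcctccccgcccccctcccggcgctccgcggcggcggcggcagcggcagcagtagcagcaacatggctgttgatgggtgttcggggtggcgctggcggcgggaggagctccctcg
Kcnh7: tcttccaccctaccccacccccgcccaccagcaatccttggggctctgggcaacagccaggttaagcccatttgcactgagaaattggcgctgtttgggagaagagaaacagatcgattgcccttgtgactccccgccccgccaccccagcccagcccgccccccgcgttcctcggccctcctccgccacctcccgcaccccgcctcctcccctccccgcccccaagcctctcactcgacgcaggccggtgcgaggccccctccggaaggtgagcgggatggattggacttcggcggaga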

How the data were processed

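Nuclei came from frozen central cross-sections of kidney, sorted on DAPI, in 10x Chromium 3′ v3.1 libraries. The authors processed reads with bcl2fastq 2.20 and Cell Ranger 7.1.0 and deposited filtered matrices of raw UMI counts per gene and barcode. The submitters' notes name GRCm39 and Seurat 5, while the methods name an mm10 reference. Intron counting was not given in the sources used here.

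Quality control required 500 genes and 800 UMIs per nucleus, with mitochondrial UMIs of 2% or less (81391 of 82784 barcodes). Nuclei were clustered with scanpy 1.11.5 (2000 variable protein-coding genes without Kcn genes, 50 components, resolution 2.2, 56 clusters) and named from fixed markers by a rule set after the clusters were seen (at least 3 markers). Clusters in which over 50% of nuclei were called doublets (3491 nuclei) entered no class. Scrublet calls were kept in the main results.

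Sums of raw counts by library, and by class within a library, were tested with edgeR 4.0.16 (quasi-likelihood, TMM over protein-coding genes, 1 model of the 4 groups, Benjamini-Hochberg, threshold 0.05). Genes needed at least 5 counts in both libraries of a compared group. Differences between classes were fitted in edgeR with the library as a block, for pairs chosen after their values were seen. The step was tested on simulated data with 200 changed genes. Levels between classes are CPM of protein-coding UMIs, and levels in tests are CPM scaled by TMM. Replicates differed beyond sampling noise.

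Named genes were those called, 25 known in kidney or vessel, for each class the 2 with the largest ratio to the next class, and the 10 most uneven over classes. A few further genes (Kcna2, Kcna6, Kcnab3, Kcne4, Kcnip2, Kcnip3, Kcnj13, Kcnk4, Kcnn2, Kcnt2 and those given last by level) were chosen after their values were seen. The values of 3 of the 64 genes are counted but not reported here. The genes and lists were chosen with earlier results of these data known. Alternatives were DESeq2 1.42.0, RLE factors, TMM over all genes, no count filter, no doublets, resolution 1.0, thinned shares, a replicate block and leaving out each library, and, added after seeing the data, leaving out nuclei like adipocytes.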

Additional observations from a re-analysis of the deposited data

Results flagged for a closer look

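In each case below the same contrast gave different changes in 2 classes of nuclei, by a test of the difference itself (edgeR with a library block, adjusted over all genes). The classes were chosen after their values were seen. For Kcnma1 the time change in TAL exceeded that in PST cluster 23 by 2.10 ± 0.18 and that in PST cluster 12 by 1.52 ± 0.18 on the log2 scale (adjusted p = 7.88e-04 and 0.00328). Its genotype change in TAL differed from that in PST cluster 23 by −1.79 ± 0.18 and from that in PST cluster 12 by −0.92 ± 0.18 (adjusted p = 3.74e-04 and 0.0261). The time change of Kcnc2 in PCT differed from that in CCD by −1.58 ± 0.24 (adjusted p = 0.00329).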

How the results depend on the processing

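Directions were followed only for results called by edgeR in whole-kidney sums or for the averages within classes. Kcnk3 for genotype at ZT4 and for time in cKOt was followed too. None reversed under the alternatives run, but called results were unlikely to reverse from the start. Genes without a call were not followed. Outside the fits that left out 1 library, 168 of these values kept their side of the threshold, 13 lost the call and 4 gained it (all of them Kcnk3). With 1 library left out 174 kept it and 114 lost it. In whole-kidney sums and for the averages within classes, counts of called genes moved by over 1.5 times as follows. DESeq2 called 5 instead of 1 for time in Ctrl, 4 instead of 0 in cKOt, 5 instead of 0 for genotype at ZT4, 2 instead of 1 at ZT16, 10 instead of 2 for the time average, 4 instead of 1 for the genotype average and 2 instead of 0 for the interaction. Over all genes DESeq2 called 233, 164, 349, 171, 520, 430 and 48 where edgeR called 24, 0, 71, 27, 84, 152 and 3. Without the count filter the calls were 2 for time in Ctrl, 1 for genotype at ZT4, 4 for the time average and 2 for the genotype average, where calls over all genes rose to 51, 127, 213 and 235. Within classes they were 50 (from 20) for time and 34 (from 9) for genotype, of 1473 pairs (3.39% and 2.31%), where 6306 and 4586 of 408214 pairs over all genes were called. For the single contrasts within classes the counts without the filter were 33 and 30 for time in Ctrl and cKOt, 19 and 20 for genotype at ZT4 and ZT16, and 7 for the interaction, where 3598, 2457, 3065, 2368 and 1069 of all pairs were called. At resolution 1.0 time in cKOt had 2, and without doublets the interaction had 1, and the share of all pairs in these 2 runs is not given here. TMM over all genes gave 2 for time in Ctrl (25 over all genes), and leaving out doublets gave 1 for genotype at ZT4 (77 over all genes). With 1 library left out the counts ran from 0 to 1 for time in Ctrl, 0 to 1 for genotype at ZT16, 0 to 2 for the time average, 1 to 2 for the genotype average, 8 to 21 for time and 4 to 10 for genotype within classes. Calls over all genes ran from 8 to 26, 8 to 30, 8 to 160 and 66 to 159 in the same fits, and those over all pairs from 0.277 to 1.17% and 0.348 to 0.83%. The low counts came without Ctrl ZT4 replicate 1 or cKOt ZT16 replicate 2 for the time average (0), without cKOt ZT16 replicate 1 for time within classes (8), and without either Ctrl ZT16 library for genotype within classes (4). The highest class was the same for 58 of the 64 genes with shares of thinned nuclei, 49 at resolution 1.0 and 58 without doublets. Classes were matched by name. At resolution 1.0 unnamed clusters had other numbers, and MD and DCT2 had no class of their own. The thin limbs were redrawn too, with 1715 nuclei in thinAL and 2399 in thinDL, where the main run had 2571 and 424. The 12 genes led by an unnamed cluster therefore could not be compared there. Calls lost outside the leave-one-out fits were those of Kcnc2 (adjusted p = 0.0968) and Kcnma1 (0.0546) in Mes/Per without doublets, of Kcnc2 in CNT (0.121), Kcnk5 in Vasc (0.106), Kcnmb2 in cluster 34 (0.167) and Kcnh8 in PST cluster 12 (0.0718) with DESeq2, and of Kcnip4 in PCT at resolution 1.0 (0.0825). The 13 also count Kcnmb2 in cluster 34 at resolution 1.0 (−0.32, from −2.68). There the number 34 belonged to the nuclei led by Wnt16 and Ptchd4, so that value compares unlike clusters.

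The replicate numbers are shared between groups but mark no litter or day. Deviations of libraries with the same number correlated at 0.279 and 0.286 between genotypes at ZT4 and ZT16, 0.127 between both cKOt groups, −0.188 between both Ctrl groups, and −0.0832 and −0.190 across genotype and time. With mixed signs and no label behind them, the numbers were not taken to pair the mice. Both same-time values were positive, however. The replicate block fits 1 effect of the number over both times, so pairing within a time point was not tested. With the replicate block the calls numbered 0 for time in Ctrl (from 1), where Kcnc2 had an edgeR adjusted p of 0.0637, 0 for time in cKOt and genotype at ZT4, 1 for genotype at ZT16, 2 for the time average, 1 for the genotype average, and 22 and 9 within classes, where Kcnma1 in PST cluster 12 (0.0523) and Mes/Per (0.0677), Kcnip4 in PCT (0.0598) and Kcnh8 in cluster 46 (0.0901) were no longer called. Over all genes the block gave 15, 2, 55, 30, 78 and 152 calls, and within classes 1.00% and 0.722% of all pairs. Among single contrasts within classes it gave 12 (from 7) for time in Ctrl and 6 (from 3) for genotype at ZT4, where 1057 and 883 of all pairs were called. At this depth 569 of 1664 pairs of a channel gene and a class passed the count filter, and the others were not tested within classes.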
